A study of Homo sapiens with 4 samples.

Results

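RPL4 is a protein of the large ribosomal subunit whose long loop reaches into the wall of the tunnel through which the growing protein chain leaves the ribosome. The genes described here are RPL4 and 7 other genes for large-subunit proteins that line this tunnel or ring its exit: RPL17 and RPL39 along the wall, and RPL19, RPL23A, RPL26, RPL31 and RPL35 at the rim. They were chosen by symbol (GENCODE release 29) by a rule on their place in the ribosome that uses no measured value, though with earlier results of these data known. Transcripts of 7 of the 8 were listed in the deposited files, 1 per gene, among 16292 transcripts in all, and no listed transcript matched RPL17. All 7 also passed the filter on low values, a mean over libraries of 5 RPKM or more, which left 9612 transcripts for every comparison below.

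Ribosome-protected fragments (footprints, the pieces of mRNA that ribosomes cover) were sequenced from HEK293, a long-established cell line of human embryonic kidney origin. The 4 groups, with 1 library each, were wild type cells without and with erythromycin and RPL4 mutant cells without and with erythromycin. Per the labels, the treatment protocol covers stable lines that express GFP, wild type L4 or a Δloop mutant of it, infected with lentivirus carrying either a hairpin that targets RPL4 or a scrambled one. Which of these each library had, whether a line was 1 clone, and the dose and time of erythromycin are not given in the labels, and the file's single RPL4 value does not separate the endogenous gene from a transgene. No library of total mRNA was analysed here, so footprint levels are not divided by mRNA level.

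The tunnel is narrow, and near its tightest point the loops of RPL4 and RPL17 face each other. RPL39 lies along the wider lower part. The rim is where the emerging chain meets its first partners: RPL23A and RPL35 form the docking site of the signal recognition particle, with RPL19, RPL26 and RPL31 around it. Erythromycin is a macrolide that binds the equivalent tunnel in bacterial ribosomes. Ribosomal protein mRNAs typically begin with a run of pyrimidines (C or T), the 5′ terminal oligopyrimidine tract, through which their translation is adjusted together.

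Start sites are shown for the 6 of 7 measured genes that have an entry in the RefSeq promoter table (GRCh38.p14), because ribosomal protein genes are known for a pyrimidine run near the start. Each line spans the 15 bases before the annotated start and the first 15 of the transcript, 5′ to 3′, with the longest unbroken run of C or T in capitals.
RPL4: tacagcgggagtggtaagcaCTTCCTTTTC
RPL39: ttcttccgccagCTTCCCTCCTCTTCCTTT
RPL19: tgggCTCTCCCCTTCgcagataatgggagg
RPL26: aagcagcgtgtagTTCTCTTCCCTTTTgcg
RPL31: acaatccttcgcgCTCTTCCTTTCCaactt
RPL35: agccccgcctaCTTCCTCTTTCCCTCggag
The windows are chr15:66504841-66504870 (minus strand, RPL4), chrX:119791616-119791645 (minus, RPL39), chr17:39200268-39200297 (plus, RPL19), chr17:8383179-8383208 (minus, RPL26), chr2:101002274-101002303 (plus, RPL31) and chr9:124861943-124861972 (minus, RPL35). The runs are 10 to 18 bases long within these windows and the longest is that of RPL39. They span the RefSeq start in RPL39, RPL26, RPL31 and RPL35, begin at base 6 of the transcript in RPL4, and end just before the start in RPL19. A run in the window is thus not in each case a tract at the first base of the annotated mRNA. A run of at least 6 pyrimidines, read on the transcribed strand, was present in 6 of 6, in 27 of 31 genes for other large-subunit proteins with an entry, in 24 of 26 for small-subunit proteins, and in 31.1% of all 35116 promoter windows of this length. The gene counts take a gene as having a run if any of its annotated starts has one. The share of all windows is over single starts, so the measures differ for genes with several starts. The RefSeq start lay up to 29 bases from the start of the deposited transcript in GENCODE, so the exact first base is uncertain.

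The libraries differed in depth, from 604506 reads in the untreated mutant to 2965243 in untreated wild type, with 2555613 in treated wild type and 993461 in the treated mutant. The members had 238 to 9576 reads each. All intervals below are 95% intervals for counting error only, and the spread between cultures is unknown because no group was repeated. The HEK293 label was checked with 8 markers fixed for it, of which 6 were at 5 RPKM or more in all 4 libraries and NEFM and PAX2 were not. The summed level of 8 markers of other cell types was 4.27 to 10.1 RPKM. The 10 most-read transcripts took 8.07% of reads in the untreated mutant and 5.73% to 5.76% in the other libraries.

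The 7 genes had high but unequal footprint density. RPKM divides reads by coding length and library size, which puts genes on a common scale. How reads that match several places were treated is not given, so the order of genes below is that of the deposited values. In untreated wild type, RPL35, part of the docking site at the rim, was highest at 7913 RPKM. RPL39 (5428) and RPL19 (5339) followed with overlapping counting intervals, then RPL23A (5040), RPL31 (4344), RPL4 (2515) and RPL26 (1151). The median of the other 38 large-subunit proteins measured was 2958 RPKM and that of all transcripts tested was 24.9. RPL4 and RPL26 thus lay below the median of the other large-subunit proteins in untreated wild type and the remaining 5 above it. The same division held in each of the other 3 libraries, and the highest member exceeded the lowest by 6.87 to 7.14 times in 3 libraries and by 10.2 times in the treated mutant.

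**Figure D1:**
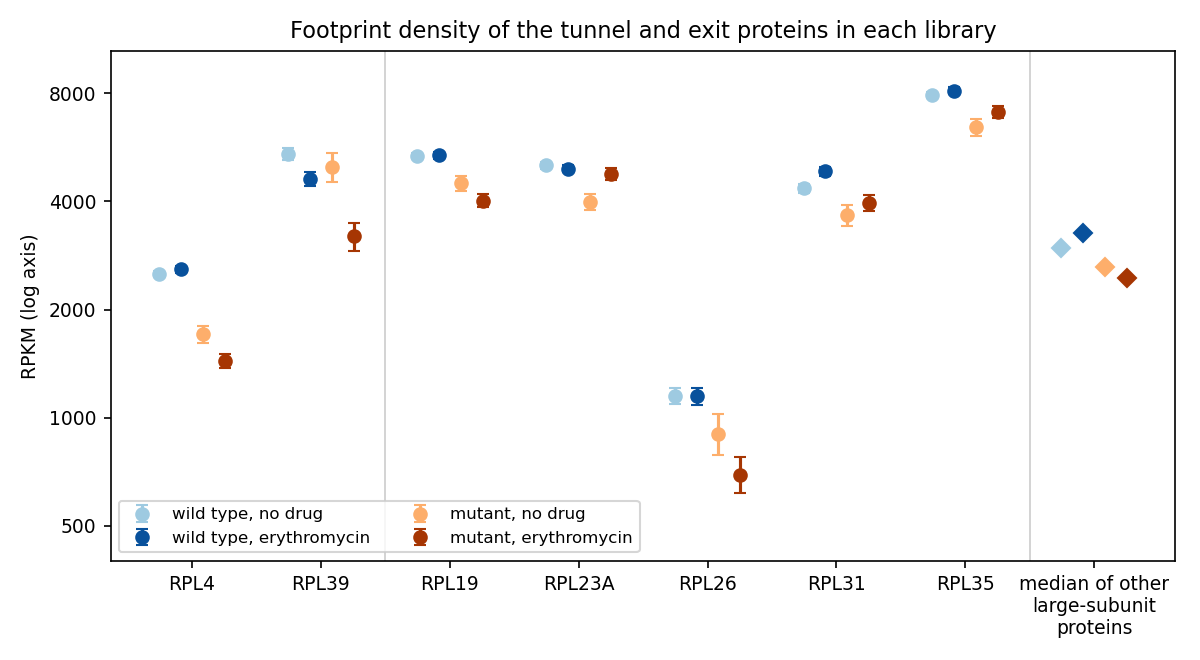
RPKM (log axis) of each measured gene in the 4 libraries, with 95% counting intervals, tunnel wall on the left and exit rim in the middle, and the median of the other large-subunit proteins as diamonds. RPL35 is highest and RPL26 lowest in every library, and RPL4 is lower in both mutant libraries (1707 and 1439) than in both wild type libraries.

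Together the 7 genes took 1.53% of reads (Wilson interval 1.52% to 1.55%) in untreated wild type and 1.55% (1.54% to 1.57%) in treated wild type. In the mutant they took 1.22% (1.19% to 1.246%) without and 1.20% (1.18% to 1.22%) with erythromycin. Both mutant values lay below both wild type values, with intervals apart. Of the reads on all 45 large-subunit proteins measured, the 7 genes held 19.1% and 18.6% (wild type) against 18.04% and 17.7% (mutant). RPL4 alone held 4.03% and 3.98% against 3.25% and 2.73%, and the other 6 held 15.1% and 14.7% against 14.8% and 15.0%, so apart from RPL4 the wild type and mutant shares overlapped. All 45 together took 8.02% and 8.34% of reads in wild type libraries but 6.75% and 6.78% in mutant ones, so the subunit as a whole was lower too. These are bulk lysates, in which fewer cells making a protein and fewer footprints per cell cannot be told apart.

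Setting mutant against wild type libraries addressed whether footprints on these genes differ where RPL4 is altered. All 7 genes were lower in the mutant in both treatments, on log2(RPKM + 1) centred on the median transcript, with 2 exceptions under other scalings. With libraries scaled to a common sum of RPKM, RPL23A with the drug was at 0.024 (0.015 with the top transcripts left out), and RPL39 without the drug was at 0.0044 with the top transcripts left out. The median of the 7 was −0.28 without and −0.48 with erythromycin. The other 38 large-subunit proteins had medians of −0.20 and −0.37, and the 33 small-subunit proteins −0.30 and −0.45. The counting interval lay below 0 for 6 of 7 without the drug, where it did so for 9.28% of all transcripts, and for 7 of 7 with it (against 16.9%). By the same rule 31 and 34 of 38 other large-subunit proteins were lower, as were 31 and 30 of 33 small-subunit proteins, so the members shared this with other ribosomal proteins. Deeply read transcripts pass this rule more easily, and these genes are deeply read. Counted by size instead, 2 of 7 were at least 20% lower without the drug (22.8% of all transcripts) and 5 of 7 with it (26.1%), and 0 were at least 2-fold lower in either (3.32% and 2.26%). The count without the drug ranged from 1 to 3 of 7 over the other settings, and its share is near the background by size. With the drug the count fell from 5 to 4 with a mean of at least 20 RPKM, no centring or either scaling. Members with an interval below 0 with the drug fell from 7 to 6 in the same settings. In other large-subunit proteins 8 and 23 of 38 were at least 20% lower, and in small-subunit proteins 14 and 22 of 33.

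RPL4 (chromosome 15, 66498015 to 66504883 on the minus strand, GRCh38; 427 codons) was among the lowest of all large-subunit proteins in this comparison. Wild type libraries held 2515 RPKM untreated and 2586 treated, and mutant ones 1707 and 1439. The wild type libraries overlapped in counting interval, the mutant libraries were both lower, and the treated mutant was lowest. Against wild type, the mutant level was 0.691 times as high without erythromycin (log2 −0.53 [−0.62, −0.45]) and 0.533 times with it (−0.91 [−0.98, −0.83]). RPL4 ranked 1 from the bottom of the 45 large-subunit proteins without the drug and 2 with it, with RPL36A, at 39.9 to 77.5 RPKM, the one below it. It was lower than the median of the other large-subunit proteins by a log2 difference of −0.33 and −0.54, and lower than that of small-subunit proteins by −0.24 and −0.46. As a multiple of the median level of the other large-subunit proteins, RPL4 was at 0.850 and 0.793 (wild type) and at 0.650 and 0.588 (mutant). Of all transcripts tested, 12.0% and 3.27% had a lower mutant over wild type ratio than RPL4.

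A model over both treatments gave RPL4 as the single member that passed. This was limma's additive model of genotype and erythromycin, which has 1 residual degree of freedom and compares 2 libraries with 2. As no group was repeated, its residual reflects only how far the drug's effect departs between mutant and wild type. For RPL4 that departure was −0.35 [−0.46, −0.24], which the additive model treats as error. limma then moderates each transcript's error towards that of transcripts of similar level. The SE and p-value of RPL4 thus rest largely on other transcripts and not on its own departure alone. The limma p-values are thus exploratory and do not measure the spread between cultures. In this model RPL4 fell by 0.71 (log2, SE 0.148, adjusted p = 0.0447, lower in 2 of 2 treatments). It was 1 of 8 transcripts that passed as lower (0.0832% of those tested), while 115 passed as higher (1.2%). The call did not hold with libraries scaled to a common sum of RPKM (adjusted p = 0.0737, or 0.0699 leaving out the top transcripts), with no term for erythromycin (0.0829) or with no variance trend (0.445), and it held in the 6 other settings (0.0049 to 0.026). The estimate stayed between −0.74 and −0.60 in all settings tried.

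RPL39, the small wall protein of 51 codons (chromosome X, 119786506 to 119791643), followed another course. Wild type libraries held 5428 RPKM untreated and 4608 treated, and mutant ones 4973 and 3194. The untreated mutant overlapped both wild type libraries in counting interval, and the treated mutant was below all others. Mutant over wild type was −0.10 [−0.25, 0.04] without erythromycin and −0.59 [−0.74, −0.45] with it. RPL39 was the one member whose interval for the untreated comparison included 0. Over both treatments its limma estimate was −0.34 (SE 0.137, adjusted p = 0.360).

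Among the rim proteins, RPL26 (chromosome 17, 8377521 to 8383164), which sits beside the exit, came closest to RPL4. Levels were 1151 RPKM (untreated) and 1147 (treated) for wild type, and 899 and 694 for the mutant. Both mutant values were below both wild type values, with the treated mutant lowest. The log2 ratio was −0.33 [−0.53, −0.13] without and −0.79 [−0.97, −0.61] with erythromycin, and −0.55 over both (limma, SE 0.173, adjusted p = 0.210). RPL26 and RPL4 were the 2 members at least 20% lower in both treatments, as were 7.61% of all transcripts. So were 7 of 38 other large-subunit and 12 of 33 small-subunit proteins.

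RPL19 (chromosome 17, 39200283 to 39204732), a rim protein of 196 codons, had wild type levels of 5339 RPKM untreated and 5377 treated, and mutant levels of 4495 and 4014. The wild type libraries overlapped in counting interval and both mutant libraries were lower. Its ratios, −0.22 [−0.30, −0.15] and −0.48 [−0.55, −0.42], were close to the medians of the other large-subunit proteins, with differences of −0.02 and −0.12.

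RPL23A, RPL35 and RPL31 had the ratios closest to 0 with the drug. RPL23A (chromosome 17, 28720244 to 28723936), the core of the docking site, had wild type levels of 5040 RPKM untreated and 4934 treated, against 3990 and 4758 for the mutant. The untreated mutant was lowest and the treated mutant overlapped treated wild type. Its ratio was −0.31 [−0.39, −0.23] without the drug but −0.12 [−0.18, −0.05] with it. The latter value changed sign when libraries were scaled to a common sum of RPKM (0.024, or 0.015 with the top transcripts left out of the sum).

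RPL35 (chromosome 9, 124857884 to 124861961), its neighbour at the docking site, stood at 7913 RPKM untreated and 8138 treated for wild type, against 6421 and 7114 for the mutant. Both mutant values were lower, and the ratios were alike in both treatments at −0.28 [−0.36, −0.20] and −0.26 [−0.32, −0.19]. RPL31 (chromosome 2, 101002293 to 101018306), a rim protein of 130 codons, stood at 4344 RPKM untreated and 4856 treated for wild type, and at 3658 and 3957 for the mutant. The mutant libraries overlapped each other in counting interval and lay below both wild type libraries. Its ratios were −0.22 [−0.33, −0.12] and −0.36 [−0.44, −0.27]. The limma estimates over both treatments were −0.35 for RPL19, −0.28 for RPL31, −0.26 for RPL35 and −0.21 for RPL23A, with adjusted p of 0.269, 0.385, 0.360 and 0.530. At an unadjusted limma p under 0.05, 6 of the 7 members were lower (all but RPL23A), against 5.11% of all transcripts. So were 14 of 38 other large-subunit and 22 of 33 small-subunit proteins.

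**Figure D2:**
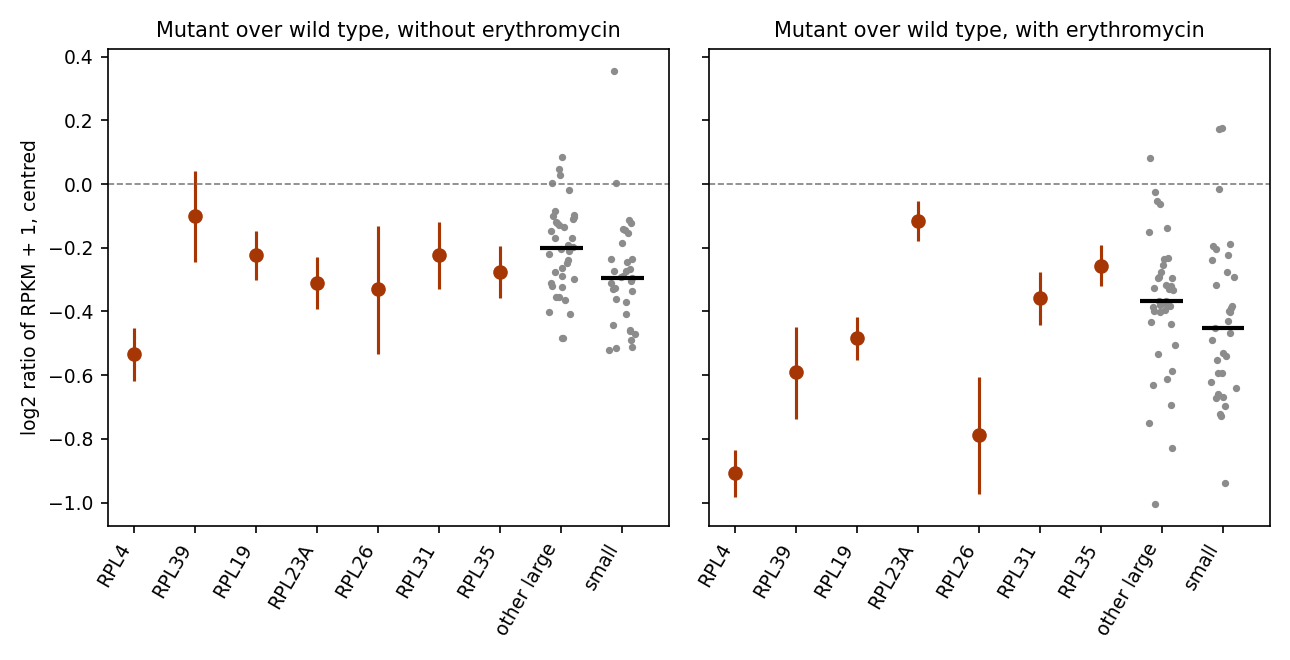
Centred log2 ratio of mutant over wild type without (left) and with (right) erythromycin for each measured gene with its 95% counting interval, beside every other large-subunit and small-subunit protein (grey, bars at the medians). All 7 genes lie below 0 in both panels (scaled to a common sum of RPKM, RPL23A on the right is at 0.024, and RPL39 on the left at 0.0044 with the top transcripts left out), with RPL4 at −0.53 and −0.91 and RPL23A moving closest to 0 on the right at −0.12.

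The comparison of treated with untreated wild type cells asked whether the drug alone moves these genes. Changes were small: 0 of 7 were at least 20% lower (18.1% of all transcripts). The counting interval lay below 0 for 1 of 7 (13.9% of all) and above 0 for 3 of 7 (14.2%). It lay below 0 for 6 and above 0 for 22 of 38 other large-subunit proteins, and for 5 and 15 of 33 small-subunit proteins. RPL39 was lower at −0.22 [−0.31, −0.13], second from the lowest of the 45 large-subunit proteins. RPL31 was higher at 0.18 [0.12, 0.23], and RPL4 and RPL35 at 0.06 [0.01, 0.10] each. Under 3 other settings (no centring, no filter, or a stricter one of 20 RPKM) the intervals of RPL4 and RPL35 included 0 and that of RPL31 did not. RPL19 (0.03), RPL26 (0.01) and RPL23A (−0.02) had intervals that included 0, and RPL26 was at −0.005 or −0.006 under the same 3 settings. The median of the 7 was 0.03, and that of the other large-subunit proteins 0.10.

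In mutant cells the responses spread widely. RPL39 was lowest of the 45 large-subunit proteins at −0.69 [−0.88, −0.51]. RPL26 was at −0.43 [−0.68, −0.17], RPL4 at −0.30 [−0.40, −0.20] and RPL19 at −0.22 [−0.31, −0.12]. On the other side, RPL23A was at 0.20 [0.11, 0.29] and RPL35 at 0.09 [0.00, 0.19], while the interval of RPL31 included 0 (0.06 [−0.06, 0.18]). The counting interval lay below 0 for 4 of 7 (7.71% of all transcripts) and above 0 for 2 of 7 (7.23%). It lay below 0 for 10 and above 0 for 6 of 38 other large-subunit proteins, and for 9 and 2 of 33 small-subunit proteins. At least 20% lower were RPL39 and RPL26, 2 of 7, against 23.9% of all transcripts. The median of the 7 was −0.22 and that of the other large-subunit proteins −0.08.

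The difference between these responses, mutant minus wild type, uses all 4 libraries and so shares them with each comparison above. It was −0.47 [−0.67, −0.27] for RPL39, −0.44 [−0.70, −0.17] for RPL26, −0.35 [−0.46, −0.24] for RPL4 and −0.24 [−0.34, −0.14] for RPL19. RPL23A was the one member with an interval above 0, at 0.22 [0.11, 0.32]. RPL31 (−0.12) and RPL35 (0.04) had intervals that included 0. Intervals lay below 0 for 4 of 7 (10.4% of all transcripts) and above 0 for 1 of 7 (9.16%). They lay below 0 for 18 and above 0 for 3 of 38 other large-subunit proteins, and for 16 and 3 of 33 small-subunit proteins. The difference was at least 20% lower, as a ratio of ratios, for 3 of 7, against 28.1% of all transcripts. This held for 8 of 38 other large-subunit and 7 of 33 small-subunit proteins. The median of the 7 was −0.24, of the other large-subunit proteins −0.15 and of small-subunit proteins −0.14. Both measured wall proteins were among the 3, with 1 of the 5 rim proteins (RPL26). This describes 2 groups too small for a test. RPL4 passed narrowly, with a ratio of ratios of 0.782 against the cut of 0.8. It did not pass with no centring, with a mean of at least 20 RPKM or scaled to a common sum of RPKM. Over both genotypes limma passed 0 of 7 for erythromycin (0% of transcripts passed as lower and 0.125% as higher). RPL39, at −0.46 (SE 0.137, adjusted p = 0.561), was the 1 member with an unadjusted p under 0.05 (2.25% of all as lower).

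**Figure D3:**
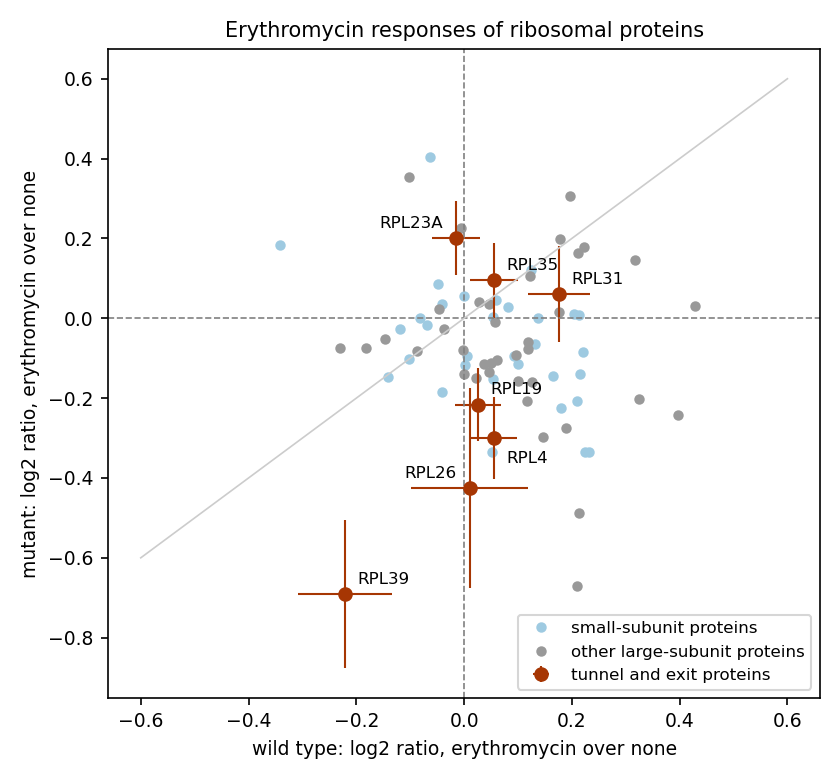
Centred log2 ratio of erythromycin over none in wild type (horizontal) and mutant (vertical) for the measured genes with 95% counting intervals, other large-subunit proteins (grey) and small-subunit proteins (blue), with the line of equal response. RPL39 lies lowest at −0.69 in the mutant, and RPL23A lies above the line at 0.20 in the mutant against −0.02 in wild type.

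Near-identical copies limit some of these values, since the files do not say how reads that match several places were treated. RPL26L1, a paralog of RPL26 with the same coding length of 438 bases, had 390 and 374 RPKM (wild type) and 291 and 234 (mutant), untreated first. All 4 of its values were lower than the corresponding ones of RPL26, and its mutant over wild type ratios of −0.40 [−0.76, −0.05] and −0.74 [−1.06, −0.42] were near those of RPL26. RPL39L, a paralog of RPL39, had 15 and 14 reads (wild type) and 5 and 8 (mutant), too few to place its ratios, whose intervals included 0. Both RPL26 and RPL39 are therefore uncertain to the extent that reads were shared. No copy of the other members was listed, and whether their reads were shared with unlisted copies is unknown.

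Of other genes, the profile of RPL4 over the 4 libraries was most like those of TRIM28, HSPD1, KPNA2, CCT2 and SNRPC, by Euclidean distance between centred log2 values less each gene's mean, among the 1720 transcripts whose mean reached 100 RPKM. TRIM28, a transcriptional corepressor, had 459 and 456 RPKM in wild type, then 310 and 266 in mutant libraries (distance 0.05). HSPD1, the mitochondrial chaperonin, was at 641 and 623 and then 430 and 364 (0.06), and CCT2, a subunit of the cytosolic chaperonin, at 358 and 378 and then 248 and 222 (0.09). KPNA2 is an importin and SNRPC a spliceosomal protein. The ribosomal proteins nearest to RPL4 were RPL21, at rank 6, and RACK1, at rank 13. The nearest member was RPL26 at rank 34 with a distance of 0.19, and the farthest was RPL23A at rank 801 with 0.62. RPL35 and RPL31 were nearest to each other among the members, at 0.09. With 4 libraries, these distances describe the profiles and nothing more.

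**Figure D4:**
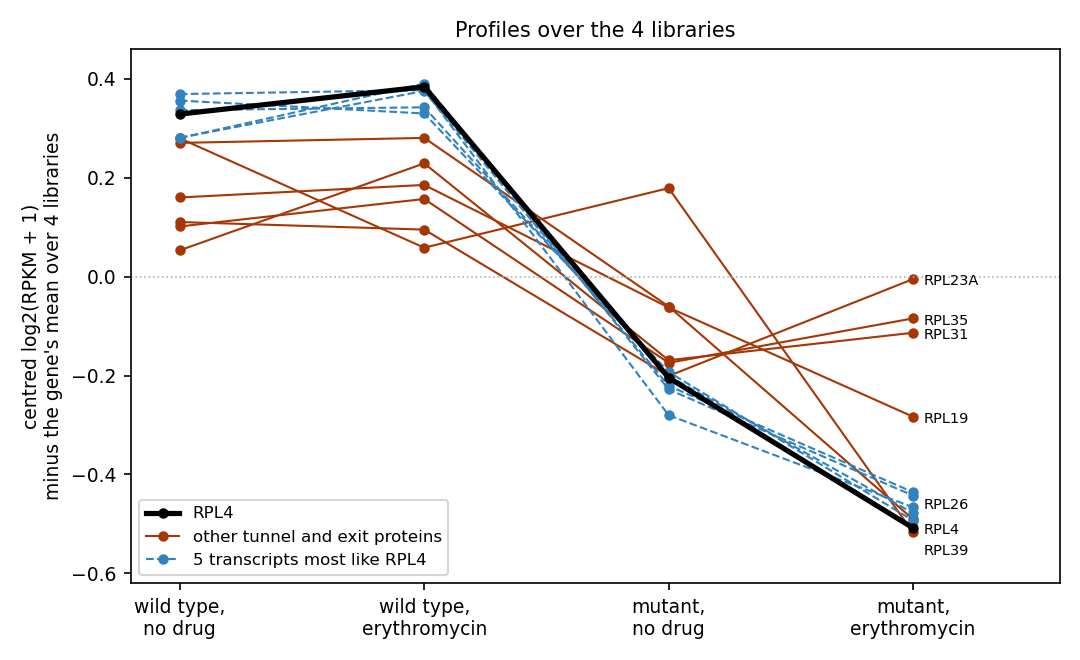
Centred log2(RPKM + 1) less each gene's mean over the 4 libraries for RPL4 (black), the other measured genes (brown) and the 5 transcripts most like RPL4 (blue, dashed). RPL4 lies at 0.33 and 0.38 in wild type libraries, then at −0.20 and −0.51. RPL26 and RPL39 end near it, at −0.49 and −0.52, and RPL23A ends highest of the members, at −0.0049.

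In partners of the exit the median mutant over wild type ratio was lower with erythromycin than without it, as it also was in both lists of ribosomal proteins. The 22 factors that dock at or act near the exit include the signal recognition particle, the nascent polypeptide-associated complex and the enzymes that trim or acetylate new chains. Their median mutant over wild type ratio was 0.01 without the drug and −0.32 with it. For genotype, 0 of 22 passed limma as lower (0.0832% of all transcripts), with 4 at an unadjusted p under 0.05 (5.11% of all). These shares are also the background for the lists that follow. Genes are ranked here by the mean of their 2 ratios. NAA15 (−0.52 and −1.01) and NAA50 (−0.46 and −0.84), subunits of the N-terminal acetyltransferase NatA and its partner, were lowest. SRP14 (0.05 and 0.55), of the signal recognition particle, and DNAJC2 (0.23 and 0.14), a chaperone that binds near the rim, were highest. Single ratios of these factors ran from −0.81 to 0.27 without the drug and from −1.01 to 0.95 with it. The 15 other mRNAs known for an oligopyrimidine start, mainly translation factors, had medians of −0.18 and −0.40, close to those of ribosomal proteins, and 0 of 15 passed as lower (6 unadjusted). By the same mean, PABPC1 (−0.75 and −0.55), the poly(A)-binding protein, and VIM (−0.35 and −0.85) were lowest, and EEF1G (0.37 and 0.48), an elongation factor subunit, was highest. With the drug the lowest single ratio of this list was −0.91, below that of VIM. Of the other ribosomal proteins, 0 of 38 large-subunit (14 unadjusted) and 1 of 33 small-subunit proteins (22 unadjusted) passed as lower. The latter was RPS10, which fell by 0.59 (limma, SE 0.122, adjusted p = 0.0452), and RPS21 had the highest mean ratio of the small-subunit list, at 0.35 and −0.01.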

How the data were processed

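Footprint libraries of HEK293 cells, 1 per group, were used as deposited. The authors' values are RPKM per Ensembl transcript. Per the submitters' processing notes, tools included cutadapt and STAR, and the build was GRCh38. The counter is not given in the sources used here, nor is the annotation. Transcripts absent from a file were read as 0, and 16172 of 16292 matched GENCODE 29. Library totals and reads were recovered from the RPKM and the coding length with stop codon: 99.0% to 99.1% of listed values gave whole reads within 0.001. Ratios are of log2(RPKM + 1) over transcripts with a mean of 5 RPKM or more, centred on their median, and 20% lower means a ratio of 0.8 or less. Counting intervals are exact and conditional on both counts (scipy 1.17.1), and normal for differences of responses. limma 3.58.1 (R 4.3.3), centred on the median ratio to untreated wild type, used an additive model and a variance trend. Benjamini-Hochberg adjustment was over 9612 transcripts at 0.05. The fit was also run on simulated reads with genotype changes and counting error only. The simulation had no erythromycin effect and no spread between cultures, so it cannot show how reliable the calls are here. Other genes were named by rule: the 2 highest and 2 lowest of a list by mean mutant over wild type ratio, and the 5 most like RPL4; not all are printed. The members and lists were chosen with earlier results of these data known. Alternatives are in the closing section.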

Additional observations from a re-analysis of the deposited data

Results flagged for a closer look

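RPL4 went in opposite directions with erythromycin in the 2 genotypes, at 0.055 [0.01, 0.10] in wild type and −0.30 [−0.40, −0.20] in the mutant, with both counting intervals apart from 0. The wild type interval included 0 without centring, with no filter and with a mean of at least 20 RPKM, where the value was 0.04. With 1 library per group the difference was not tested against the spread between cultures.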

How the results depend on the processing

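No paired analysis was possible because each group has 1 library and nothing in the labels links libraries across groups, and no library could be left out. The members' ratios and their limma estimates for erythromycin were compared under alternatives. Of these values, 291 counted as unchanged, 22 as moved, and 2 with an interval apart from 0 changed sign. A ratio counted as unchanged if it stayed within the counting interval. A limma estimate, which has no counting interval, did so if its call and sign held or if a change of sign was smaller than its SE. These 2 were RPL23A in mutant over wild type with erythromycin, at 0.024 scaled to a common sum of RPKM and 0.015 with the top transcripts left out of it. Values whose interval included 0 also changed sign: RPL39 in mutant over wild type without the drug (−0.10 to 0.0044, common sum without the top transcripts) and RPL26 for the drug in wild type (0.01 to −0.005 with no filter or no centring, and −0.006 with a mean of at least 20 RPKM). Scaled to a common sum, the median transcript stood at 0.14 in mutant over wild type with erythromycin. The value was 0.13 leaving out the top transcripts, and 0.06 with neither scaling nor centring. Sizes are thus best read relative to the median transcript. The members' median with the drug was −0.35 under both scalings, and −0.37 with a mean of at least 20 RPKM. Without the drug it was −0.19 and −0.17 under the scalings. Members at least 20% lower without the drug fell from 2 to 1 under the scalings and with the 20 RPKM filter, and rose to 3 with no filter or no centring. Members with an interval above 0 for the drug in wild type fell from 3 to 1 with no filter, a mean of at least 20 RPKM or no centring. In the mutant they fell from 2 to 1 leaving out the top transcripts, and for the difference of responses they rose from 1 to 2 with no centring. The untreated mutant over wild type log2 ratio of the RPL19 level, itself divided by the median RPKM of the other large-subunit proteins, turned from −0.08 to 0.00042 when RPL19 was taken as a share of all large-subunit reads.

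In limma, members passing for genotype went from 1 to 0 under both scalings, with only the term tested and with no variance trend. The number of transcripts passing was 123 for genotype, and 209 with a pseudocount of 0.1 RPKM, 441 with no filter, 194 with no centring, 54 with only the term tested and 65 with no trend. For erythromycin it was 12, and 31, 149, 26, 0 and 0 in the same order, and 40 with a mean of at least 20 RPKM. Centred on the gene mean over the 4 libraries, an alternative added after seeing the data, it was 187 and 24. The cause of these changes was not tested. Depth limits RPL26 and RPL39 most, with 238 and 469 reads in the untreated mutant.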
